A study of Mus musculus with 9 samples.

Results

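The receptors for glucocorticoid and mineralocorticoid hormones, the enzymes that switch their ligand on and off, and a set of their target genes were read in the colon of mice with colitis. The members were chosen by gene symbol, and all 10 were found among the 27719 genes and loci of the count table: *Nr3c1*, *Nr3c2*, *Hsd11b1*, *Hsd11b2*, *Fkbp5*, *Tsc22d3*, *Sgk1*, *Zbtb16*, *Scnn1b* and *Scnn1g*. The colons of 9 mice gave 1 library each, 3 per group, made by copying total RNA to cDNA, amplifying it by PCR and reading whole molecules on an Oxford Nanopore PromethION instrument. The control group drank distilled water, and the other groups drank 2.5% dextran sodium sulfate (DSS), which injures the colon epithelium, for 7 days. Mice of the DSS + EA group were also given electroacupuncture (EA), a weak current passed through needles, at the ST36 point of each hind limb. Sessions of 30 minutes at 2 Hz and 0.2 mA were given on 5 successive days, once 5 days of modeling had passed. The mice were of the C57BL/6J strain, and those without EA were held in the same frame for as long. No group analysed here had needles without current, so the needles and the current cannot be told apart. The sex of the mice and the hour at which tissue was taken, on which glucocorticoid levels depend, are not given in the sources used here.

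Glucocorticoids, of which corticosterone is the main one in mice, are released by the adrenal cortex and act through the glucocorticoid receptor, a transcription factor that waits in the cytoplasm on a chaperone complex and moves to the nucleus when it binds its ligand. The mineralocorticoid receptor binds corticosterone as tightly as aldosterone, and epithelia that respond to aldosterone, such as that of the distal colon, protect it with an enzyme that inactivates corticosterone. In such cells aldosterone raises sodium uptake through the epithelial sodium channel, while glucocorticoids in immune and connective tissue cells induce a set of genes that restrain inflammation.

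The libraries held 2627695 to 4235576 counts, and 3 counts, taken as the floor, were worth 0.708 to 1.14 CPM, the library-scaled unit used here for levels (adjusted by the TMM method). The summed CPM of 12 epithelial markers was between 13437 and 15489 in control mice, 11867, 5095 and 2781 in DSS mice 1, 2 and 3, and between 11489 and 12604 in DSS + EA mice. DSS mice 2 and 3 thus held less epithelial RNA than any other mouse. In the same order of groups, 8 fibroblast markers summed to 834 to 904, 4221 to 6939 and 1704 to 1779 CPM, 10 markers of macrophages and monocytes to 518 to 541, 1624 to 3046 and 1038 to 1194 CPM, and 10 neutrophil markers to 23.0 to 160, 4433 to 26451 and 1197 to 1590 CPM. Of the neutrophil list, *Elane* and *Mpo* were at 0 in every control mouse. In bulk tissue, fewer cells of a type and less RNA per cell cannot be told apart. Pancreatic acinar markers summed to between 42.1 and 262 CPM in control and DSS mice and to between 497 and 31687 CPM in DSS + EA mice, the highest in DSS + EA mouse 2.

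The promoter windows of *Sgk1* and *Tsc22d3* held, respectively, the glucocorticoid response palindrome and a single arm of it. These stretches are shown because both genes rose in the DSS group compared with the control group and had a window with a match. *Hsd11b1*, which also rose, had a window without a match. *Zbtb16*, which rose too, had no window, and neither had *Nr3c1* and *Hsd11b2*. RefSeq windows of 300 bases (build GRCm38.p6), from 250 bases before the start of a gene to 50 bases after it, matched 7 of the 10 members with 14 windows. Both strands were searched for the palindrome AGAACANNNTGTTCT, for the looser form GNACANNNTGTNC, which contains every match of the palindrome, and for a single arm of it, AGAACA or TGTTCT. Capitals mark the palindrome in *Sgk1* and the arm in *Tsc22d3*, while a further single arm near the 5′ end of the *Sgk1* stretch is left in lower case, and both stretches are written 5′ to 3′ on the strand of the gene.
Sgk1, chr10:21993640-21993889, plus strand: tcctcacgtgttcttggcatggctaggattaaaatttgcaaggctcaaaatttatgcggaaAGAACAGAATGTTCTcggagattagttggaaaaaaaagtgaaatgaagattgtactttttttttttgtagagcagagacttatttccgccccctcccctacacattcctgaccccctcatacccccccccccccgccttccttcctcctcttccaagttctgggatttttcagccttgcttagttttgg
Tsc22d3, chrX:140600660-140600772, minus strand: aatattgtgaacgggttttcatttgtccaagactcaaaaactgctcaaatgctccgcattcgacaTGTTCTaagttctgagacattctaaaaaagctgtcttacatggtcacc
The *Sgk1* stretch ends at the base before a start site at position 21993890, and it lies in introns of 5 longer annotated transcripts. Its palindrome, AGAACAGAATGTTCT, spans positions 21993701 to 21993715 and ends 174 bases before that start site. Only 3 of 32851 windows of the same length in the RefSeq table (0.00913%) hold the palindrome and 156 (0.475%) the looser form, and among the members only this window does. The *Tsc22d3* stretch lies upstream of the longest annotated transcript and holds a single arm at positions 140600702 to 140600707. Single arms were found in 4 of the 14 member windows, 3 of *Sgk1* and 1 of *Tsc22d3*, against 6233 (19%) of all windows, so a single arm is common. A match is a run of letters and not a measured binding site.

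Compared with the control group, 7 of the 9 members that passed the filter on low counts changed in the DSS group. *Hsd11b1*, *Sgk1*, *Zbtb16* and *Tsc22d3* rose, and *Nr3c2*, *Hsd11b2* and *Scnn1b* fell, by edgeR's quasi-likelihood test at a Benjamini-Hochberg adjusted p under 0.05 over 12566 genes. In the same comparison 21.5% of all genes tested rose and 19.5% fell, so changed genes were common and the count of members is to be read against 40.9%. The median log2 fold change was 0.92 over the members and 0.02 over all genes tested. In the DSS + EA group compared with the DSS group, 2 members rose (*Scnn1b* and *Hsd11b2*) and 3 fell (*Hsd11b1*, *Zbtb16* and *Tsc22d3*), against 17.2% and 18.3% of all genes tested (35.5% in either direction). There the median was -0.42 over the members and -0.02 over all genes. These 2 comparisons share the DSS mice, so their opposite directions are not independent of each other. Between DSS + EA and control mice 0 of 9 members differed in edgeR's test, against 3.64% of all genes; 2 of the 9 had an unadjusted p under 0.05, and DESeq2 called *Hsd11b1* of the 9 and also *Scnn1g*. The tenth member, *Scnn1g*, did not pass the filter and is described from its counts.

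Members whose groups did not overlap numbered 7 of 9 in DSS against control, 6 in DSS + EA against DSS and 3 in DSS + EA against control, beside 52%, 47.4% and 32.2% of all genes tested. By direction, 26.2% of all genes lay higher and 25.9% lower without overlap in the first comparison, 24.2% and 23.3% in the second, and 18% and 14.2% in the last. With the stricter rule of a log2 fold change beyond 2.5 and an unadjusted P under 0.01, only *Hsd11b1* was called in DSS against control, higher, where the rule called 10.2% of all genes (6.62% higher and 3.57% lower). Of the 9 members tested, only *Scnn1b* was called in DSS + EA against DSS, higher, where the rule called 6.41% (2.91% higher and 3.5% lower). *Scnn1g* was not in this fit. With no filter on low counts, it met both cutoffs in DSS + EA against DSS (log2 fold change 2.67) and against control (3.69). It also met them with DESeq2 (2.76 and 3.82). Of the 9 members tested, the rule called 0 in DSS + EA against control, where it called 2.08% of all genes (1.74% higher and 0.334% lower). In that last comparison the adjusted p rule called 3% of all genes higher and 0.637% lower.

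**Figure D1:**
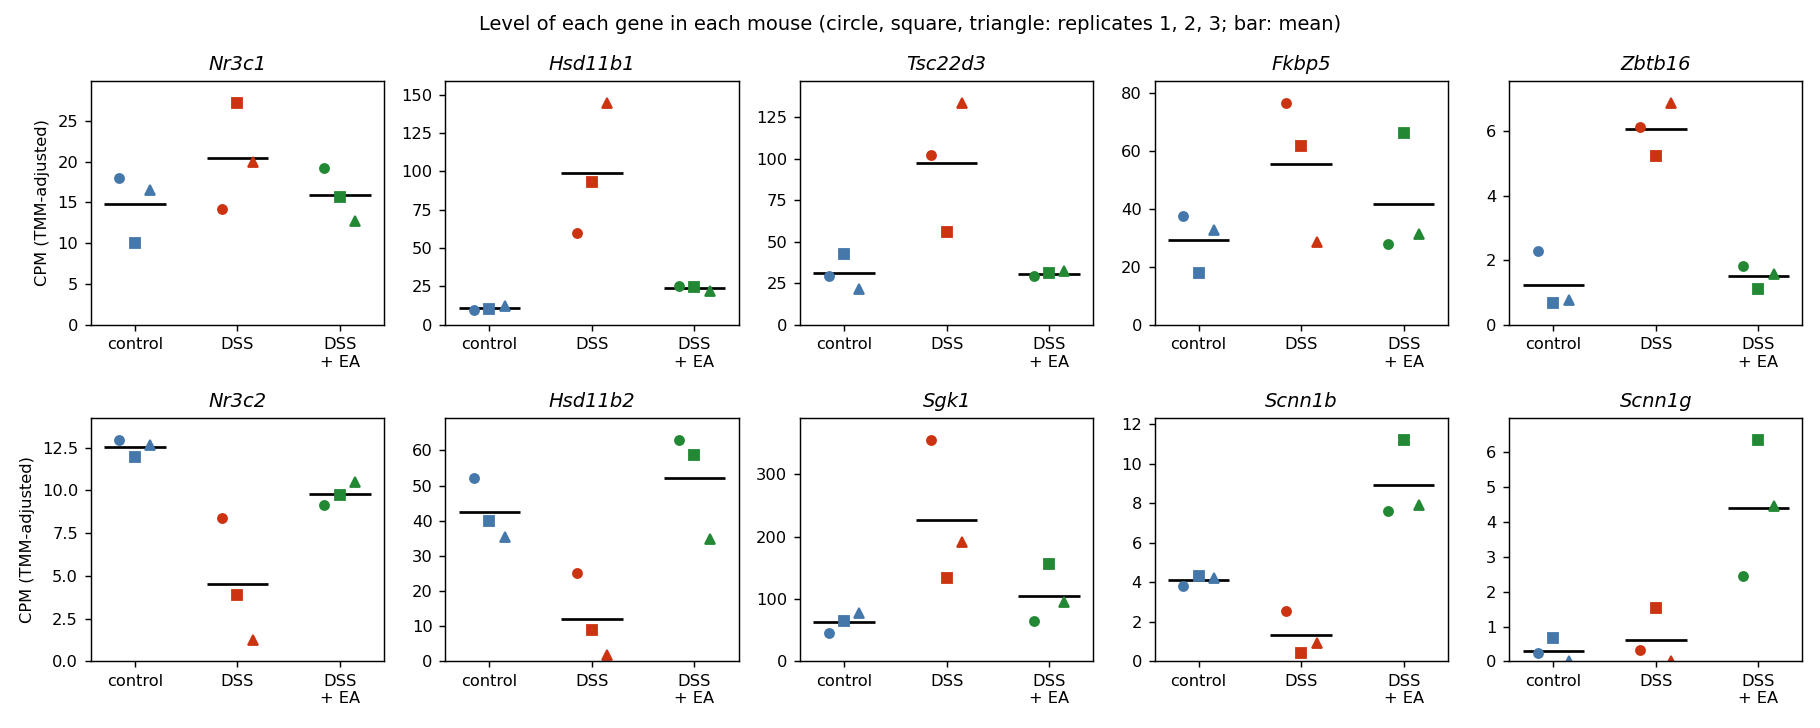
CPM (TMM-adjusted, linear axis from 0, one scale per gene) of each of the 10 members in each mouse, by group, circles, squares and triangles marking mice 1, 2 and 3 and bars the group means. *Hsd11b1* in the DSS mice (59.8 to 144) stands above every other mouse, and *Scnn1b* in the DSS + EA mice (7.61 to 11.2) above every other mouse.

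The glucocorticoid receptor gene *Nr3c1* (chromosome 18, 39410545 to 39519421, minus strand, GRCm38) was read at similar levels in all groups. Its level was 18.0, 9.97 and 16.5 CPM in control mice 1, 2 and 3, then 14.2, 27.2 and 19.97 CPM in DSS mice and 19.2, 15.7 and 12.7 CPM in DSS + EA mice. The groups overlapped, with DSS mouse 2 the highest. The log2 fold change was 0.47 (SE 0.31, 95% interval -0.23 to 1.16, edgeR adjusted p = 0.258) in DSS against control and -0.37 (SE 0.31, interval -1.07 to 0.32, adjusted p = 0.372) in DSS + EA against DSS. A rise of the receptor transcript by more than 1.16 on the log2 scale lies outside the first interval, and smaller ones lie inside it.

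The mineralocorticoid receptor gene *Nr3c2* (chromosome 8, 76899442 to 77245012, plus strand) fell in the DSS group. It stood at 13.0, 12.0 and 12.6 CPM in control mice, 8.36, 3.91 and 1.25 CPM in DSS mice, from 26, 18 and 4 reads, and 9.13, 9.71 and 10.5 CPM in DSS + EA mice. No DSS mouse reached the lowest DSS + EA mouse, and no DSS + EA mouse reached the lowest control mouse, so the order was control, DSS + EA, DSS. The fall in DSS against control was 2.79-fold (log2 fold change -1.48, SE 0.47, edgeR adjusted p = 0.0290), and it lost the threshold when any single control mouse (adjusted p from 0.0605 to 0.0713) or DSS mouse 2 (0.0851) was left out, and in a fit of only these 2 groups (0.0672). The DSS + EA group was higher than the DSS group by 1.12 on the log2 scale (SE 0.47, 95% interval 0.07 to 2.18), with an edgeR adjusted p of 0.0886, and the difference passed the threshold only without DSS mouse 1 (1.86, adjusted p = 0.00503). DSS + EA and control differed by -0.36 (SE 0.44, adjusted p = 0.736).

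Within each mouse, *Nr3c2* was set against *Nr3c1* as a ratio of read counts with 0.5 added to each, which does not depend on the library total. The ratio was 0.720, 1.20 and 0.770 in control mice, 0.596, 0.147 and 0.0698 in DSS mice and 0.480, 0.624 and 0.827 in DSS + EA mice. All DSS mice lay below all control mice and overlapped the DSS + EA mice through DSS mouse 1. The mean log2 ratio was 2.25 lower in DSS than in control mice (SE 0.94, a 4.77-fold difference, exact permutation test, two-sided p = 0.1), and 0.1 is the smallest p that 3 against 3 mice allow. The DSS + EA mice were 1.78 above the DSS mice (SE 0.93, exact permutation p = 0.2). The 2 differences were -1.56 and 1.08 without DSS mouse 3 and -3.10 and 2.63 without DSS mouse 1. Benjamini-Hochberg adjustment over the 6 ratio tests gave 0.15 and 0.24.

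The largest change in DSS against control among the 9 members tested was that of *Hsd11b1* (chromosome 1, 193221634 to 193264075, minus strand), which encodes 11-beta-hydroxysteroid dehydrogenase type 1, the enzyme that regenerates active corticosterone from its inactive 11-keto form. It was read at 9.66, 10.3 and 12.3 CPM in control mice, 59.8, 93.0 and 144 CPM in DSS mice and 25.6, 24.7 and 21.9 CPM in DSS + EA mice. The groups did not overlap, in the order DSS, DSS + EA, control, and within the DSS group the order was opposite to that of the epithelial markers. Compared with control, *Hsd11b1* rose 9.23-fold in the DSS group (log2 fold change 3.21, SE 0.32, edgeR adjusted p = 0.000109). Compared with DSS, it fell 4.12-fold in the DSS + EA group (-2.04, SE 0.30, adjusted p = 0.00128). Both calls held in each of the 17 other fits run at the same threshold, and the second was lost under the rule of a log2 fold change beyond 2.5. It was still 1.16 above control on the log2 scale in the DSS + EA mice (SE 0.31, adjusted p = 0.0783), a difference that passed the threshold with DESeq2 (adjusted p = 0.0432), in a fit of only these 2 groups (0.00605), and without DSS mouse 1 (0.0172) or DSS mouse 3 (0.0212). Exons of *Hsd11b1* lie within the span of *Lamb3* on the opposite strand, a laminin gene with 765 counts over the 9 libraries, and whether counting used strand is not given in the sources used here.

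*Hsd11b2* (chromosome 8, 105518755 to 105523988, plus strand) encodes the type 2 enzyme, which inactivates corticosterone and so guards the mineralocorticoid receptor in epithelia. Its levels were 52.1, 39.9 and 35.3 CPM in control mice, 25.1, 8.91 and 1.87 CPM in DSS mice, from 78, 41 and 6 reads, and 63.0, 58.6 and 34.9 CPM in DSS + EA mice. All DSS mice lay below every other mouse, while the control and DSS + EA mice overlapped, and DSS mouse 3, with the least epithelial RNA, was the lowest. *Hsd11b2* fell 3.58-fold in DSS against control (log2 fold change -1.84, SE 0.63, edgeR adjusted p = 0.0393) and rose 4.39-fold in DSS + EA against DSS (2.13, SE 0.63, adjusted p = 0.0255). The first call was lost without any single control mouse (adjusted p from 0.0638 to 0.104), without DSS mouse 2 (0.117), without DSS + EA mouse 2 (0.0533) and in a fit of only these 2 groups (0.0733). The second was lost without DSS mouse 2 (0.0869), DSS + EA mouse 1 (0.0702) or DSS + EA mouse 2 (0.0613), and in a fit of only these 2 groups (0.0606). DSS + EA against control gave 0.30 (SE 0.59, 95% interval -1.02 to 1.61, adjusted p = 0.847), an interval wide enough to hold a 2-fold difference either way.

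The balance of the transcripts of the 2 enzymes was read in each mouse as the ratio of *Hsd11b1* to *Hsd11b2* counts, with 0.5 added to each. It was 0.187, 0.261 and 0.351 in control mice, 2.38, 10.3 and 71.3 in DSS mice and 0.407, 0.422 and 0.629 in DSS + EA mice. Reads of the inactivating enzyme thus outnumbered those of the activating enzyme in every control and DSS + EA mouse, and the reverse held in every DSS mouse. Per base of the longest annotated transcript the ratios ran from 0.174 to 0.327, from 2.21 to 66.3 and from 0.379 to 0.585, so the order of the enzymes was the same on this scale. The mean log2 ratio was 5.54 higher in DSS than in control mice (SE 1.45, 46.7-fold) and 4.66 lower in DSS + EA than in DSS mice (SE 1.44, 25.3-fold). Both differences depended on single DSS mice: they were 4.26 and -3.38 without DSS mouse 3 and 6.72 and -5.83 without DSS mouse 1. Over DSS mice 1, 2 and 3 the ratio rose while epithelial markers fell (11867, 5095 and 2781 CPM) and fibroblast markers rose (4221, 4979 and 6939 CPM). The part of tissue composition in this ratio was not tested. The DSS + EA mice remained 0.88 above control (SE 0.33, 1.85-fold) without overlap. Each of these 3 differences had a two-sided exact permutation p of 0.1, the smallest possible, and 0.15 after adjustment over the 6 ratio tests.

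**Figure D2:**
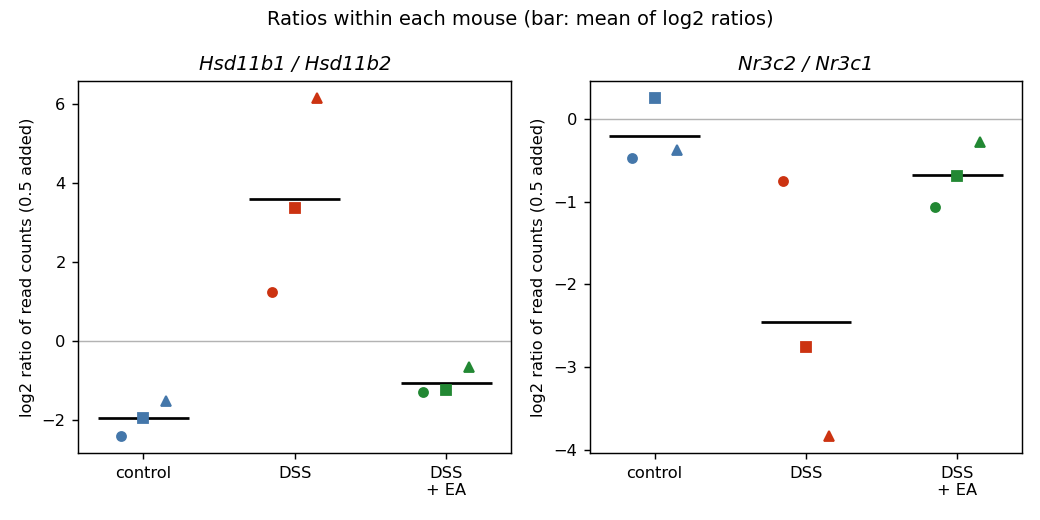
Log2 ratios of read counts within each mouse, 0.5 added to each count, for *Hsd11b1* over *Hsd11b2* (left) and *Nr3c2* over *Nr3c1* (right), with a circle, square and triangle for mice 1, 2 and 3 and a bar at the mean of each group of 3. On the left only the DSS mice lie above 0; on the right DSS mice 2 and 3 lie below all others.

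The type 1 enzyme needs NADPH made in the endoplasmic reticulum by hexose-6-phosphate dehydrogenase, the product of *H6pd*. *H6pd* stood at 6.35, 6.65 and 5.75 CPM in control mice, 18.7, 27.6 and 17.8 CPM in DSS mice and 5.78, 9.71 and 9.83 CPM in DSS + EA mice. It rose 3.41-fold in DSS against control (log2 fold change 1.77, SE 0.29, edgeR adjusted p = 0.00127) and fell 2.54-fold in DSS + EA against DSS (-1.35, SE 0.28, adjusted p = 0.00615). Of the 15 genes listed for steroid synthesis, supply and export, 7 passed the filter; 3 rose in DSS (*H6pd*, *Por* and *Abcb1b*) and 2 fell (*Srd5a1* and *Abcb1a*), with a median of -0.41, beside 21.5% and 19.5% of all genes. *Srd5a1*, which encodes a steroid 5-alpha-reductase that reduces corticosterone, had a mean of 8.12 CPM in control, 3.80 CPM in DSS and 13.6 CPM in DSS + EA mice, with log2 fold changes of -1.12 (adjusted p = 0.0280) and 1.87 (adjusted p = 0.00334). In DSS + EA against DSS, *Srd5a1* rose, *H6pd* fell, and the median was -0.52, where 17.2% of all genes rose and 18.3% fell. These 2 of 7 calls did not exceed the 35.5% of all genes called. In DSS + EA against control 0 of the 7 were called by edgeR, beside 3.64% of all genes. *Abcb1a* and *Abcb1b* are close copies that both encode P-glycoprotein, a pump that exports corticosteroids, and reads could have been divided between them. The enzymes that finish corticosterone and aldosterone, *Cyp21a1*, *Cyp11b1* and *Cyp11b2*, and the plasma carrier gene *Serpina6* had 0 counts in all 9 libraries, while *Cyp11a1*, which starts steroid synthesis, had at most 6 counts in a mouse.

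Among the targets of the glucocorticoid receptor, *Fkbp5* encodes a chaperone-bound immunophilin that lowers the receptor's affinity for its ligand and is widely used as a readout of receptor activity (chromosome 17, 28399094 to 28517527, minus strand). Its levels were 37.6, 17.9 and 32.6 CPM in control mice, 76.6, 61.7 and 28.7 CPM in DSS mice and 28.0, 66.1 and 31.4 CPM in DSS + EA mice. The groups overlapped, since DSS mouse 3 was at the level of control mice and DSS + EA mouse 2 at that of DSS mice. The log2 fold change in DSS against control was 0.92 (SE 0.44, 95% interval -0.07 to 1.91, edgeR adjusted p = 0.123), and it passed the threshold only without DSS mouse 3 (1.23, adjusted p = 0.0417). In DSS + EA against DSS it was -0.42 (SE 0.44, interval -1.39 to 0.56, adjusted p = 0.478).

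*Tsc22d3* encodes GILZ, a leucine zipper protein induced by glucocorticoids that dampens NF-kappaB and AP-1 signalling (chromosome X, 140539528 to 140600659, minus strand; its promoter stretch is shown above). Control mice held 29.2, 42.9 and 21.5 CPM, DSS mice 103, 55.8 and 134 CPM, and DSS + EA mice 29.2, 31.0 and 32.4 CPM. Every DSS mouse was above every other mouse, and the DSS + EA mice lay inside the range of the control mice. *Tsc22d3* rose 3.11-fold in DSS against control (log2 fold change 1.64, SE 0.34, edgeR adjusted p = 0.00416) and fell 3.15-fold in DSS + EA against DSS (-1.65, SE 0.34, adjusted p = 0.00544), and both calls held in each of the 17 other fits at the same threshold and were lost under the rule of a log2 fold change beyond 2.5. The difference between DSS + EA and control was -0.02 (SE 0.34, 95% interval -0.77 to 0.73).

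*Zbtb16*, which encodes the transcriptional repressor PLZF and is strongly induced by glucocorticoids in many cells (chromosome 9, 48654297 to 48836222, minus strand), followed the same order at much lower counts. It had 9, 2 and 2 reads in control mice, 19, 24 and 22 in DSS mice and 6, 3 and 5 in DSS + EA mice, or 2.29, 0.665 and 0.77 CPM, 6.11, 5.21 and 6.87 CPM, and 1.83, 1.12 and 1.59 CPM. The DSS mice stood apart and the others overlapped close to the floor. *Zbtb16* rose 4.47-fold in DSS against control (log2 fold change 2.16, SE 0.45, edgeR adjusted p = 0.00424) and fell 3.88-fold in DSS + EA against DSS (-1.96, SE 0.44, adjusted p = 0.00839).

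*Sgk1* encodes a kinase that is induced through both receptors and that, in epithelia, keeps sodium channels at the surface (chromosome 10, 21882184 to 21999903, plus strand; the palindrome is shown above). It was read at 45.0, 64.8 and 77.4 CPM in control mice, 355, 134 and 192 CPM in DSS mice and 65.1, 155 and 94.5 CPM in DSS + EA mice. All DSS mice were above all control mice, with DSS mouse 1 the highest, while DSS + EA mouse 2 passed DSS mouse 2. *Sgk1* rose 3.64-fold in DSS against control (log2 fold change 1.86, SE 0.42, edgeR adjusted p = 0.00626). DSS + EA was lower than DSS by 1.11 on the log2 scale (SE 0.41, 95% interval for the change -2.02 to -0.20, edgeR adjusted p = 0.0571), just outside the threshold, which it passed with DESeq2 (0.0424) and when DSS mouse 2 (0.0364) or DSS + EA mouse 2 (0.0377) was left out. DSS + EA against control gave 0.75 (SE 0.41, interval -0.16 to 1.66, adjusted p = 0.395).

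**Figure D3:**
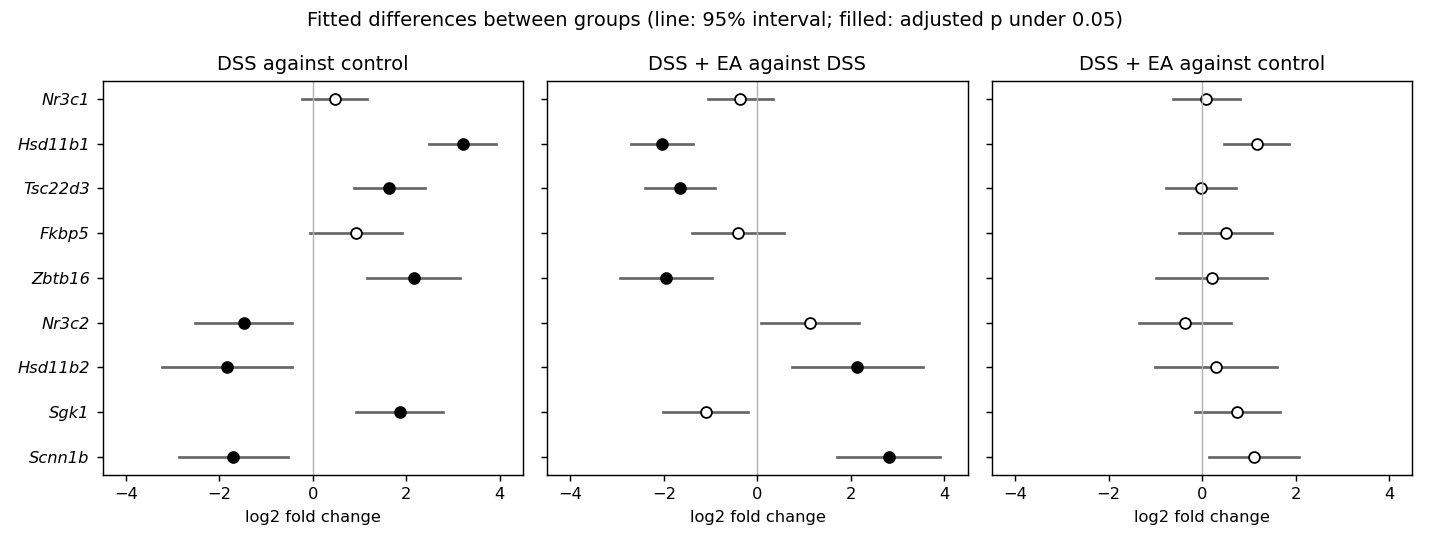
Log2 fold change of the 9 members tested, with 95% intervals from the edgeR fit, in DSS against control, DSS + EA against DSS and DSS + EA against control. *Hsd11b1* has the interval furthest above 0 in the first comparison (2.49 to 3.92), and *Scnn1b* the interval furthest above 0 in the second (1.71 to 3.91).

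*Scnn1b* encodes the beta subunit of the epithelial sodium channel, through which the distal colon takes up sodium under aldosterone (chromosome 7, 121865038 to 121918514, plus strand). It had 15, 13 and 11 reads in control mice, 8, 2 and 3 in DSS mice and 25, 30 and 25 in DSS + EA mice, or 3.81, 4.32 and 4.22 CPM, 2.57, 0.435 and 0.94 CPM, and 7.61, 11.2 and 7.93 CPM. The groups did not overlap, and the order DSS, control, DSS + EA placed the EA group highest. *Scnn1b* rose 7.01-fold in DSS + EA against DSS (log2 fold change 2.81, SE 0.50, edgeR adjusted p = 0.00276), a call that held in each of the 16 other fits in which it was tested at the same threshold. It fell 3.25-fold in DSS against control (-1.70, SE 0.52, adjusted p = 0.0260), which was lost without any single control mouse (adjusted p from 0.0557 to 0.0647), without DSS mouse 2 (0.0764) or without DSS mouse 3 (0.0697). Compared with control, DSS + EA was higher by 1.11 on the log2 scale (SE 0.43, 95% interval 0.15 to 2.07), with an edgeR adjusted p of 0.224, which was 0.0389 in a fit of only these 2 groups. An exon of *Scnn1b* lies within the span of *Cog7* on the opposite strand, which had 135 counts in all.

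*Scnn1g*, the gamma subunit gene, lies 96562 bases from *Scnn1b* on the same strand (chromosome 7, 121734479 to 121768475). It had 1, 2 and 0 reads in control mice, 1, 7 and 0 in DSS mice and 8, 17 and 14 in DSS + EA mice, which are 2.43, 6.35 and 4.44 CPM in the last group. Only the DSS + EA mice were all above the floor of 3 counts, although DSS mouse 2, with 7 reads, came close to DSS + EA mouse 1. Summed over each group and scaled to library size, 39 reads in DSS + EA mice against 3 in control mice gave a ratio of 13.6 (exact 95% interval 4.33 to 68.9), and against 8 in DSS mice a ratio of 5.84 (2.69 to 14.5), intervals that cover counting error only. With no filter on low counts, edgeR gave a log2 fold change of 2.67 in DSS + EA against DSS (adjusted p = 0.0220) and of 3.69 against control (adjusted p = 0.0410), and DESeq2 gave 2.76 (adjusted p = 0.0299) and 3.82 (adjusted p = 0.0376). When single mice were left out, with the filter then fitted to smaller groups, the call against DSS was lost without DSS mouse 3 (adjusted p = 0.0556). The call against control was lost without control mouse 1, 2 or 3 (adjusted p = 0.277, 0.136 and 0.173), DSS mouse 1 (0.0511) or DSS + EA mouse 1 (0.0821). *Scnn1g* did not pass the filter without DSS + EA mouse 2 or 3. Pancreatic acinar RNA was highest in DSS + EA mouse 2, which also had the most *Scnn1g* reads. Among the DSS + EA mice it also had the highest CPM of *Scnn1b*, *Sgk1* and *Fkbp5*. The part of acinar RNA in these values was not tested.

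The alpha subunit gene *Scnn1a*, which was not a member, had means ± SD of 15.8 ± 4.44 CPM in control, 4.93 ± 2.62 CPM in DSS and 9.12 ± 1.32 CPM in DSS + EA mice (n = 3 each). It fell in DSS against control (log2 fold change -1.68, SE 0.39, edgeR adjusted p = 0.00778), and DSS + EA against DSS gave 0.88 (SE 0.41, adjusted p = 0.114), and every DSS + EA mouse (7.61 to 10.04 CPM) was below every control mouse (10.7 to 18.8 CPM), while for the other subunits they lay above. Of 18 other genes listed for sodium absorption and the aldosterone pathway, *Scnn1a* included, 17 were tested. In DSS against control *Furin* rose and *Wnk4*, *Scnn1a*, *Prss8* and *St14* fell, with a median of 0.05. *Furin*, a protease that cuts channel subunits among many substrates, changed by 1.49 (adjusted p = 0.00786), and *Wnk4*, a kinase that regulates salt transport, by -2.32 (adjusted p = 0.00562). In DSS + EA against DSS *Wnk4* (1.91, adjusted p = 0.0180) and *St14* (1.38, adjusted p = 0.0123) rose, *Furin* (-1.89, adjusted p = 0.00402) and *Wnk1* (-1.19, adjusted p = 0.0475) fell, and the median was 0.04. These 5 and 4 of 17 genes called are to be read against 40.9% and 35.5% of all genes, and neither share exceeded it. None of the 17 was called in DSS + EA against control by edgeR, with 2 at an unadjusted p under 0.05. *Fxyd4*, which encodes a sodium pump regulator induced by aldosterone, had 177 and 156 reads in control mice 1 and 2 and 0 in control mouse 3, so its control level is given by library only.

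The other genes known to be induced by glucocorticoids moved mostly with *Tsc22d3* and *Zbtb16*. Of 24 listed, 23 were tested: 13 rose and 1 fell in DSS against control, with a median of 1.87, and 2 rose and 16 fell in DSS + EA against DSS, with a median of -1.37. Of all genes tested 21.5% rose and 19.5% fell in the first comparison and 17.2% rose and 18.3% fell in the second. Many of them are also induced by cytokines and by NF-kappaB, so the list does not read the receptor alone. *Mt2*, a metallothionein that binds zinc and copper, had a mean of 45.7 ± 12.2 CPM in control, 3087 ± 556 CPM in DSS and 192 ± 38.6 CPM in DSS + EA mice (SD, n = 3 each), a log2 fold change of 6.07 (SE 0.31, edgeR adjusted p = 5.47e-06) and then -4.01 (SE 0.28, adjusted p = 0.00011). The related gene *Mt1* changed by 4.38 and -3.23 (adjusted p = 1.62e-05 and 0.000166), though reads of these similar short genes could have been divided between them. *Nfkbia*, which encodes the NF-kappaB inhibitor IkappaB-alpha, changed by 3.46 and -2.42 (adjusted p = 3.33e-05 and 0.000391).

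*Per1*, a clock gene with well known glucocorticoid response elements, was singled out after its values were seen. It had 11, 6 and 0 reads in control mice, 140, 220 and 188 in DSS mice and 11, 12 and 7 in DSS + EA mice. The DSS mice were more than 10 times above every other mouse. It rose 28.7-fold in DSS against control (log2 fold change 4.84, SE 0.54, edgeR adjusted p = 0.000184) and fell 15.1-fold in DSS + EA against DSS (-3.91, SE 0.50, adjusted p = 0.000688). *Per1* also follows the hour of the day, which is not given for these tissues and whose part was not tested. *Klf9*, a Kruppel-like factor induced by glucocorticoids and likewise named after its values were seen, had means of 14.9, 54.4 and 6.24 CPM in the 3 groups, with log2 fold changes of 1.87 (adjusted p = 0.00188) and -3.13 (adjusted p = 0.00048).

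The listed genes called in the other direction were *Pck1* in both of these comparisons and *Tat* in DSS + EA against DSS. *Pck1*, which encodes the cytosolic enzyme that opens gluconeogenesis, stood at 20.1, 19.9 and 15.3 CPM in control mice, 1.29, 0.435 and 0 CPM in DSS mice and 8.52, 7.10 and 7.30 CPM in DSS + EA mice. It fell in DSS against control (log2 fold change -4.97, edgeR adjusted p = 0.000142) and rose in DSS + EA against DSS (3.70, adjusted p = 0.00131). *Tat*, tyrosine aminotransferase, rose in DSS + EA against DSS (1.31, adjusted p = 0.00987), and DSS against control gave -0.45 (adjusted p = 0.264). In DSS + EA against control 5 of the 23 (*Il1r2*, *Ddit4*, *Anxa1*, *Mt2* and *Mt1*) were higher and 0 were lower, with a median of 0.64, where 3% of all genes were higher and 0.637% lower. Over the alternatives between 1 and 9 were called.

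**Figure D4:**
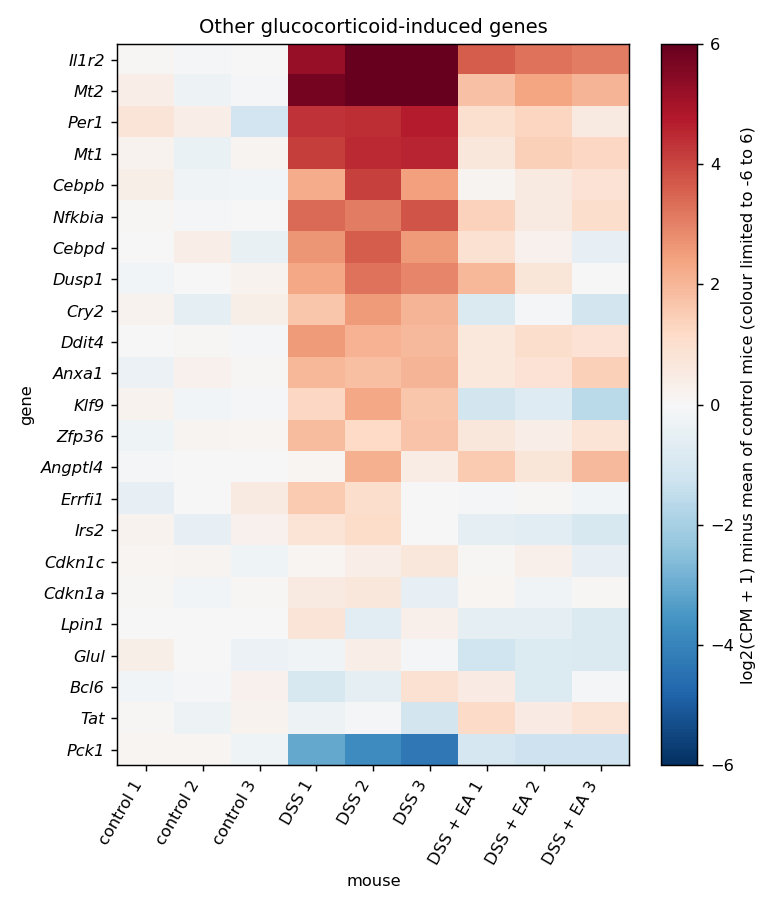
Heat map of log2(CPM + 1) minus the control mean for the listed glucocorticoid-induced genes tested (rows) in each of the 9 mice (columns), with colours limited at 6 in either direction. *Mt2*, *Nfkbia* and *Per1* are above the control mean in all DSS mice, and *Pck1* is below it there.

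Of 18 chaperones and coregulators of steroid receptors, all tested, 6 rose in DSS against control (*Crebbp*, *Ncoa1*, *Ep300*, *Ncoa3*, *Hsp90ab1* and *Dnajb1*) and 1 fell (*Fkbp4*), with a median of 0.32, in a comparison that called 40.9% of all genes. Here and in DSS + EA against DSS, where 35.5% of all genes were called, calls in this list were no more frequent than among all genes. *Crebbp*, a histone acetyltransferase recruited by many activators, changed by 1.43 (SE 0.24, edgeR adjusted p = 0.00145). *Fkbp4*, which encodes the immunophilin FKBP52 that favours receptor activity and competes with FKBP5 for the chaperone, had 149, 134 and 155 CPM in control mice, 41.2, 97.6 and 35.3 CPM in DSS mice and 192, 81.4 and 120 CPM in DSS + EA mice. All DSS mice were below all control mice, and DSS mouse 2 passed DSS + EA mouse 2. *Fkbp4* fell in DSS against control (log2 fold change -1.33, SE 0.41, edgeR adjusted p = 0.0260) and rose in DSS + EA against DSS (1.17, SE 0.41, adjusted p = 0.0474), where *Crebbp*, *Nrip1* and *Ncoa3* were among the genes that fell and the median was -0.27. None was called in DSS + EA against control by edgeR, with 4 at an unadjusted p under 0.05.

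Because epithelial RNA differed between the groups, the members were also set per 1000 counts of 6 epithelial genes (*Epcam*, *Cdh1*, *Cldn7*, *Krt8*, *Krt18* and *Krt19*) in the same mouse, as a description with no test. On this scale *Hsd11b2* was 10.6, 8.54 and 6.46 in control mice, 6.69, 4.15 and 1.92 in DSS mice and 13.0, 16.1 and 8.35 in DSS + EA mice. The DSS mean was 0.499 of control, and DSS and control now overlapped through DSS mouse 1. The DSS + EA mean was 2.94 times that of DSS without overlap. *Nr3c2* was 2.63, 2.56 and 2.32 in control mice and 2.23, 1.82 and 1.28 in DSS mice, a mean of 0.709 of control without overlap. In DSS + EA mice *Nr3c2* was 1.89, 2.67 and 2.51, a mean 1.33 times that of DSS, and these mice overlapped both other groups. *Scnn1b* was 0.775, 0.925 and 0.772 in control mice, 0.686, 0.203 and 0.958 in DSS mice, and 1.57, 3.08 and 1.90 in DSS + EA mice. DSS and control overlapped, while the DSS + EA mean was 3.55 times that of DSS and 2.65 times that of control, without overlap in either case. This scale does not set absorptive colonocytes apart. Their 8 markers summed to 11764 to 31312 CPM in control and 6664 to 15765 CPM in DSS + EA mice. In DSS mice 1, 2 and 3 the sums were 5190, 1393 and 808 CPM. The part of these cells in the values was not tested.

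The members that rose in DSS, and *Fkbp5*, which was not called there, were set likewise per 1000 counts of the 8 fibroblast markers. This scale was chosen after the data were seen. *Hsd11b1* was 11.6, 11.4 and 13.7 in control mice, 14.2, 18.7 and 20.8 in DSS mice and 14.4, 14.5 and 12.5 in DSS + EA mice. Its DSS mean was 1.46 times that of control, without overlap but far below the difference in CPM, and DSS and DSS + EA overlapped. *Tsc22d3* was 35.0, 47.4 and 23.9 in control mice and 24.3, 11.2 and 19.2 in DSS mice, which overlapped, with a DSS mean of 0.515 of control. The DSS + EA means were 0.968 (*Tsc22d3*), 0.743 (*Zbtb16*), 1.31 (*Sgk1*) and 2.09 (*Fkbp5*) times those of DSS, each with overlap. The DSS means of *Zbtb16* (0.804 of control) and *Sgk1* (0.654) also overlapped control, and that of *Fkbp5* (0.342) lay below control without overlap. Per 1000 epithelial counts, the DSS means of *Hsd11b1* (32.3 times control), *Zbtb16* (14.8), *Tsc22d3* (9.97) and *Sgk1* (9.49) lay above control without overlap. That of *Fkbp5* did too. On that scale all of them were lower in DSS + EA than in DSS mice, without overlap. Per fibroblast count, *Nr3c2* (0.0687 of control), *Hsd11b2* (0.0549) and *Scnn1b* (0.0592) were lower in DSS without overlap. For *Tsc22d3*, *Zbtb16*, *Sgk1* and *Fkbp5* the direction thus depended on the scale. In DSS against control 8 of 8 fibroblast, 9 of 10 macrophage and monocyte and 7 of 7 tested neutrophil markers rose by the edgeR test. So did 5 of 7 endothelial markers, beside 21.5% of all genes tested. Which cells carried the transcripts thus cannot be told from these libraries.

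**Figure D5:**
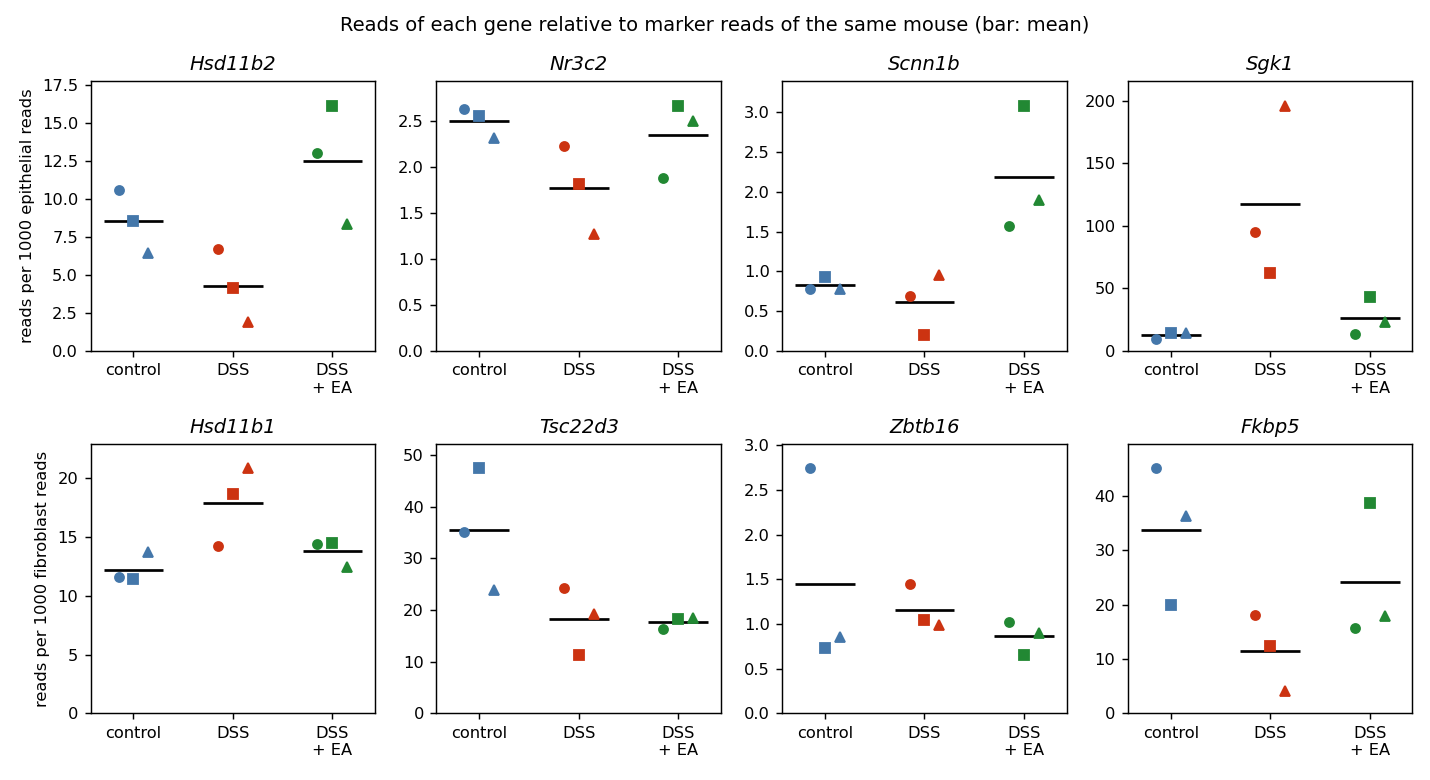
Members per 1000 counts of 6 epithelial genes or of 8 fibroblast markers in the same mouse, by group, with a circle, square and triangle for mice 1, 2 and 3 and a bar at the mean. *Scnn1b* per epithelial count is highest in the DSS + EA mice (1.57 to 3.08), and *Hsd11b1* per fibroblast count spans 11.4 to 20.8 over all mice.

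The gene whose pattern was most like that of each member was found by the Pearson correlation of log2 CPM over the 9 libraries, which share their groups and depth, so it describes these mice only. For *Nr3c2* it was *Myh14*, a non-muscle myosin heavy chain gene (r = 0.994), and for *Hsd11b2* it was *Cyp2d9*, a cytochrome P450 gene (r = 0.989). *Hsd11b1* was most like *Emb*, which encodes the membrane glycoprotein embigin (r = 0.993), *Zbtb16* most like *Ndst2* (r = 0.986) and *Scnn1b* most like *Slc35c2* (r = 0.985). For *Tsc22d3* the gene was *Dtna* (r = 0.976), for *Sgk1* *Pdcd6* (r = 0.972), for *Nr3c1* *Prdm2* (r = 0.951) and for *Fkbp5* *Mpp6* (r = 0.941).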

How the data were processed

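Total RNA of 9 mouse colons, 1 library per mouse, was read by nanopore sequencing of PCR-amplified cDNA (14 cycles per the labels). The authors deposited raw whole-number counts of reads per gene. The submitters' processing notes name mm10; the aligner, counting tool, annotation and use of strand are not given in the sources used here. PCR copies were not told apart from molecules, so the floor of 3 counts covers counting error only. Of 27719 genes and loci, 5620 had no count; 14 lines without counts were skipped. No 2 libraries held identical values.

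The tests used edgeR 4.0.16 in R 4.3.3 (TMM, filterByExpr by group, prior count 0.125, quasi-likelihood F test), in one fit of 9 libraries with group as the only term, which kept 12566 genes. A gene was called at a Benjamini-Hochberg adjusted p under 0.05 over all genes tested, and SEs were derived from F. The study used DESeq2 with a log2 fold change beyond 2.5 and P under 0.01. These cutoffs, applied to the edgeR fit, were an alternative. Others were DESeq2 1.42.0, RLE or library totals, no filter, a mean of at least 20 counts, only 2 groups, a prior count of 2, an adjusted p under 0.01, the replicate number as a block, and each mouse left out. The method was tested on simulated counts. Within-mouse ratios were compared by exact permutation tests (Python 3.11.15, pandas 2.3.3). Positions and transcript lengths are from GENCODE M21.

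The members and lists were chosen with earlier results of these data known. Named genes are the members, up to 3 called genes of lowest p per direction of each list in the first 2 comparisons, and the gene most alike each member; the text says where others were added, and the remaining list genes are named only as part of a count. No outlier test was made in groups of 3. The result of 1 list gene is not reported here.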

Additional observations from a re-analysis of the deposited data

How the results depend on the processing

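No called member and no ratio changed direction under the alternatives run. The study's cutoffs (log2 fold change beyond 2.5, P under 0.01), which it used with DESeq2, were applied here to the edgeR fit. They called 1280 genes and 1 of the 9 members tested (*Hsd11b1*) in DSS against control, in place of 5144 and 7. In DSS + EA against DSS they called 806 genes and 1 member (*Scnn1b*), in place of 4457 and 5. In DSS + EA against control they called 261 genes and 0 members, in place of 457 and 0. These are not the counts that the study reported, and *Scnn1g* was not in this fit. With no filter on low counts and with DESeq2, *Scnn1g* met both cutoffs in DSS + EA against DSS and against control. At an adjusted p under 0.01 the counts of genes were 2946, 2108 and 128, and 4 members were called in DSS against control. Leaving out each mouse in turn gave 4 to 7 members in DSS against control, and the 3 members that fell lost their calls together without any single control mouse or DSS mouse 2. In DSS + EA against control it gave 110 to 772 genes and 0 to 2 members (1 without DSS mouse 1, 1 without DSS mouse 2 and 2 without DSS mouse 3). There DESeq2 called 697 genes and 2 members, a fit of only the 2 groups 1149 genes and 2 members, and no filter on low counts 1 member. A fit of only the 2 groups called 5 members in DSS against control and 4 in DSS + EA against DSS. With the replicate block 4543, 3829 and 364 genes and 6, 5 and 0 members were called, *Scnn1b* in DSS against control being lost (adjusted p = 0.0503). Same-numbered mice did not deviate together (1 of 9 pairs had a correlation over 0.1), and 0 of 9 mice correlated best with their own number. Whether the numbers pair the mice is not given in the sources used here, and so few mice cannot settle it. Depth limits *Scnn1g*, *Zbtb16* and *Scnn1b*, which had 30 counts or fewer in each mouse. The p-values measure only the spread between these mice.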
